A study of Mus musculus with 6 samples.

Results

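The 10 genes described here are Bcl2 family genes that decide between survival and death of a cell at its mitochondria. They were taken from the deposited table by name, as 4 survival genes (Bcl2, Bcl2l1, Bcl2l2 and Mcl1), the pore-forming effector Bak1 and 5 genes for BH3-only proteins (Bcl2l11, Bid, Bad, Bik and Bmf), out of 22162 genes in all. Bax and Bbc3 were left out of this choice. Mouse skin fibroblasts (MSFs), cells from the dorsal skin of a FASST mouse of the FVB/N strain, were given 10 µM tamoxifen (TAM) or the vehicle ethanol for 48 h, and poly(A) RNA of 3 samples of each was sequenced. The 48 h are the length of the exposure, and the time at which the RNA was taken is not stated. By the study's methods the cells were moved to low oxygen upon treatment. The 3 TAM libraries are labelled senescent and the 3 ethanol libraries non-senescent. Groups of 3 values are given in the order of replicates 1, 2 and 3. A pair is the ethanol and the TAM library of the same replicate number, and whether these were cultured together is not known. All 6 samples carry the same alleles, a Cre-ER-T2 fusion under a regulatory sequence of the pro-alpha 2(I) collagen gene and a lox-stop-lox p27Kip1 allele at the ROSA26 locus that TAM activates. The MSF line came from a single female mouse and no TAM-treated cells without the allele were analysed here, so activation of p27Kip1 and other effects of TAM cannot be told apart. The labels do not say how separate the 3 samples of a group were, and p-values measure only the spread between them.

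Survival proteins of the family hold the effectors Bak and Bax in check on the outer mitochondrial membrane. BH3-only proteins sense damage or loss of growth factors and either block the survival proteins or activate the effectors, which then open pores and release cytochrome c. Senescent fibroblasts are known for resisting this form of death, and compounds that bind survival proteins are used to kill them.

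No member passed the test of a difference between the groups. By name, the members with the largest differences towards higher levels in the TAM libraries were Bcl2l1 (1.85-fold, log2 difference 0.89 with a standard error of 0.47), Bcl2 (0.66, standard error 0.49) and Bid (0.59, standard error 0.30). Bcl2l2 differed by 0.44 (standard error 0.17) and was the only member whose 3 TAM values all lay above the other 3. The largest differences in the other direction, −1.63 for Bmf and −0.78 for Bcl2l11, rested on 1 library. Counts were deposited in a normalized form, differences are of log2(normalized counts + 1), and limma's moderated test with Benjamini-Hochberg adjustment was run over the 11877 genes with at least 1 c.p.m. (16.2 normalized counts) in at least 3 of the 6 libraries. Of the 10 members 9 were tested, each above that value in all 6 libraries. At an adjusted p under 0.05 the test called 0 of the 9, where it called 0.244% of all genes tested (0.168% higher under TAM, 0.0758% lower). A fit blocked on replicate number also called 0 of 9, against 1.62% of all genes (1.00% and 0.615%). At an unadjusted p under 0.05 there was 1 member without the block (Bcl2l2, higher), against 13.4% of all genes (6.67% higher and 6.70% lower), and there were 2 with it (Bcl2l1 and Bcl2l2, both higher), against 17.0% (8.64% higher and 8.32% lower).

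The libraries as a whole bear on these values in several ways. The sums of normalized counts ranged from 14952400 to 17315000. Cdkn1b, the mouse gene for p27Kip1, had between 1427 and 3074 normalized counts in the ethanol libraries and between 1520 and 1699 in the TAM libraries, with a log2 difference of −0.32 (limma adjusted p = 0.677), so its row did not show a higher level under TAM, and all directions hold for the libraries as labelled. It is not known whether reads of the p27Kip1 allele at ROSA26 were counted on this row, so the row does not settle whether the allele was active. Both libraries numbered 2 stood apart from the others of their group, with a root mean square log2 difference from them of 0.85 (non-senescent) and 0.82 (senescent), where the other 4 libraries had between 0.66 and 0.70. The 10 fibroblast markers summed to between 1962060 and 2082630 normalized counts in the ethanol libraries and to between 1278750 and 1594320 in the TAM libraries, with none of the 10 under 1 c.p.m. in all libraries. Of these markers 7 had a negative log2 difference and 3 a positive one. Col1a1, Col1a2, Col3a1, Dcn and Lum were lower under TAM without overlap, as were 11.4% of all genes tested. Thy1 was higher without overlap (1.36, limma adjusted p = 0.295), as were 9.19% of all genes. Markers of keratinocytes summed to between 60.3 and 87.0 in all 6 libraries, with Krt1 at 0 throughout, and those of leukocytes to between 176 and 467, with Emr1 and Cd3e at 0 throughout. Endothelial markers summed to between 85.9 and 241 in the ethanol libraries and between 15.7 and 35.1 in the TAM libraries. Kdr, the only one of them tested, made up most of the sum under ethanol but not under TAM (means 130 and 8.79). The mean of Tek was also lower under TAM (17.1 against 6.07) and that of Cdh5 differed little (1.6 against 1.57). The mean of Pecam1 was higher under TAM (4.3 against 6.93), as were those of Tie1 and Emcn, which were at 0 under ethanol. Adipocyte and muscle markers summed to between 196 and 498 against between 579 and 3087, the last in replicate 2. Most of that last sum was the muscle markers Myh11 (1568) and Acta1 (1404). Of the 3 markers tested, these 2 had positive log2 differences. The adipocyte marker Fabp4 had a negative one (−0.26, limma adjusted p = 0.947). Melanocyte and Schwann cell markers summed to between 70.2 and 115. Within these sums single markers stood apart without overlap between the groups. Trp63, a keratinocyte marker, had 25.1, 25.8 and 24.9 normalized counts under ethanol and 7.15, 2.5 and 6.87 under TAM (limma adjusted p = 0.187). The myeloid markers Lyz2 (35.3 to 62.9 against 103 to 159, adjusted p = 0.141) and Csf1r (73.4 to 75.7 against 90.6 to 226, adjusted p = 0.388) were on the higher side under TAM. Krt5, a keratinocyte marker under 1 c.p.m. in every library, went the other way from Trp63, with 0.64, 0 and 0 against 2.96, 7.53 and 13.4. The leukocyte marker Cd68 overlapped and was on the lower side (log2 difference −0.59, limma adjusted p = 0.758). Among the tested markers the largest difference without overlap was that of Kdr (−3.71, limma adjusted p = 0.0608, and 0.0488 with the block). Next came the fibroblast markers Lum (−2.38, limma adjusted p = 0.236) and Dcn (−2.37, adjusted p = 0.163) and the muscle marker Myh11 (2.26, adjusted p = 0.156). The part of other cells in the results was not tested, and fewer cells of a type cannot be told apart from less RNA per cell.

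Promoters of the 4 genes on which the account turns are shown first, as the 250 bases before the most upstream start that RefSeq gives (GRCm38.p6), to put letters beside the genes with the largest positive difference (Bcl2l1), without overlap between groups (Bcl2l2) and with the shared low library (Bcl2l11 and Bmf). Capitals mark matches on either strand to GTAAACA, the core letters of FOXO factor sites, and to GGGCGG, the GC box of Sp1-type factors, which do not overlap each other here.
Bcl2l1 (chr2:152831729-152831978, minus strand): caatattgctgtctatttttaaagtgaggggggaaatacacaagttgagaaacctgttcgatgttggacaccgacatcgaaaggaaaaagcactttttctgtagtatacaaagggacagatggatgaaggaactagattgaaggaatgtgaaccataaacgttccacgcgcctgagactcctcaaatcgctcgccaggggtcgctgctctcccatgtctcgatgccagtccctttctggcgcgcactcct
Bcl2l2 (chr14:54883175-54883424, plus strand): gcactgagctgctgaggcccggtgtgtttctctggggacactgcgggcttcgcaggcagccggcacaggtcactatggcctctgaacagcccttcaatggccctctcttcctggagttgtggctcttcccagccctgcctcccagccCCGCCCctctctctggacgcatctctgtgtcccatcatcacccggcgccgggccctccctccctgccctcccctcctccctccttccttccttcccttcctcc
Bcl2l11 (chr2:128125788-128126037, plus strand): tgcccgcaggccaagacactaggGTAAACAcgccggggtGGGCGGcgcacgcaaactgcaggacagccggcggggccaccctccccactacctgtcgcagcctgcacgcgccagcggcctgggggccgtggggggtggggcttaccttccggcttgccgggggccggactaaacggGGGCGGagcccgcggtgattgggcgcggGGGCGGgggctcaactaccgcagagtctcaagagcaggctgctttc
Bmf (chr2:118549687-118549936, minus strand): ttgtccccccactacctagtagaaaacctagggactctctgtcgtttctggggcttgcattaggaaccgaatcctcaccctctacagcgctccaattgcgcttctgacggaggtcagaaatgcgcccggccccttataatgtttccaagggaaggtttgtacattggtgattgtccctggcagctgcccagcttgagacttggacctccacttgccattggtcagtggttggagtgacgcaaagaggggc
The Bcl2l11 window holds 1 FOXO match, which begins 227 bases before the start, and 3 GC boxes, which begin 211, 74 and 46 bases before it. The Bcl2l2 window holds 1 GC box, 103 bases before the start, and the Bcl2l1 and Bmf windows hold neither motif. Among 32851 promoter windows of this length, 3.17% hold GTAAACA and 32.7% hold GGGCGG. Over the 15 windows found for 9 members (none was found for Bik), the Bcl2l11 window was the only one with GTAAACA, and none held TTCNNNGAA, the STAT letters, which 7.02% of all windows hold. These matches describe letters in the windows and not binding.

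Bcl2l1 encodes Bcl-xL, a survival protein that binds both BH3-only proteins and effectors. It lies on chromosome 2 of mm9 from 152593052 to 152657418 (ENSMUSG00000007659, 6 exon blocks), and the table gives 1 value for its 10 annotated transcripts, so that the long survival form and the short pro-death form of this gene are not separated. Under ethanol Bcl2l1 had 306, 480 and 172 normalized counts, and under TAM 675, 770 and 310. In all 3 pairs the TAM library had the higher value, by log2 differences of 1.14, 0.68 and 0.85, while the groups overlapped because replicate 3 was low and replicate 2 high in both. The estimate of 0.89 had a 95% interval from −0.21 to 1.99 (limma adjusted p = 0.470), and the blocked fit gave one from 0.43 to 1.35 (adjusted p = 0.106). The difference was 0.51 (limma adjusted p = 0.802) without ethanol replicate 3 and was 0.64 both without TAM replicate 2 and with library weights. With both libraries numbered 2 left out, an alternative chosen after seeing the data, the difference was 0.99, with a limma adjusted p of 0.305 without the block and 0.0277 with it. That fit rests on 2 pairs and called 472 genes higher and 383 lower.

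Bcl2l2 encodes Bcl-w, a close relative of Bcl-xL. The gene is on chromosome 14 from 55502214 to 55507067 (ENSMUSG00000089682, 3 exon blocks), and 13.3% of its exon bases are shared with Gm20521 on the same strand. Reads from shared bases of such same-strand genes cannot be told apart, and neither can those of genes on opposite strands here, since the strand setting of the counting is not known. The ethanol values of Bcl2l2 were 739, 864 and 715 normalized counts and the TAM values 1185, 989 and 980. The groups did not overlap, as for 9.19% of all genes tested in this direction and 20.6% in either, and an exact permutation test of 3 libraries against 3 cannot go below p = 0.1. The group means were 773 ± 80.2 and 1052 ± 116 (SD, n = 3), and the log2 difference of 0.44 had a 95% interval from 0.05 to 0.84 (limma adjusted p = 0.323). Under every alternative tried it stayed positive, between 0.35 and 0.57, and with both libraries numbered 2 left out it was 0.57.

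Bcl2, the founding survival gene of the family, was the lowest of the 4 per length of exon. It lies on chromosome 1 from 108434755 to 108610851 (ENSMUSG00000057329, 2 exon blocks), and D630008O14Rik on the other strand covers 7.76% of its exon bases. Under ethanol Bcl2 had 121, 83.0 and 36.2 normalized counts, and under TAM 140, 140 and 75.5. Each pair was higher under TAM, by 0.21, 0.75 and 1.04, and replicate 3 was the lowest library of both groups. The log2 difference of 0.66 had a 95% interval from −0.48 to 1.81 (limma adjusted p = 0.607), and from −0.01 to 1.34 (adjusted p = 0.301) with the block. It was 0.18 without ethanol replicate 3 and 1.04 without ethanol replicate 1, so the size of the difference depended on which ethanol library was kept.

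Mcl1 encodes a short-lived survival protein and was the most abundant member. The gene is on chromosome 3 from 95462643 to 95467099 (ENSMUSG00000038612, 4 exon blocks). The ethanol values of Mcl1 were 1993, 5636 and 1764 normalized counts and the TAM values 2244, 2448 and 2513. The 3 TAM libraries differed little from each other, and 1 ethanol library, replicate 2, stood far above all the others. On the log2 scale it lay 1.59 above the mean of the other 2 ethanol libraries, and 501 of the 11877 genes tested lay further above theirs. The log2 difference was −0.17 with a 95% interval from −1.17 to 0.83 (limma adjusted p = 0.897). It turned to 0.36 (adjusted p = 0.396) without ethanol replicate 2, when both other ethanol values lay below all TAM values. In the same ethanol library Bnip3, a mitochondrial BH3-like gene induced by low oxygen, had 9584 normalized counts, against 589 and 553 in the other ethanol libraries and between 620 and 1063 in the TAM libraries. Its relative Bnip3l had 7136 there, against 2424 and 2781 in the other ethanol libraries and between 1682 and 2647 in the TAM libraries. These 2 genes moved with the high Mcl1 value, and their part in it was not tested.

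**Figure D1:**
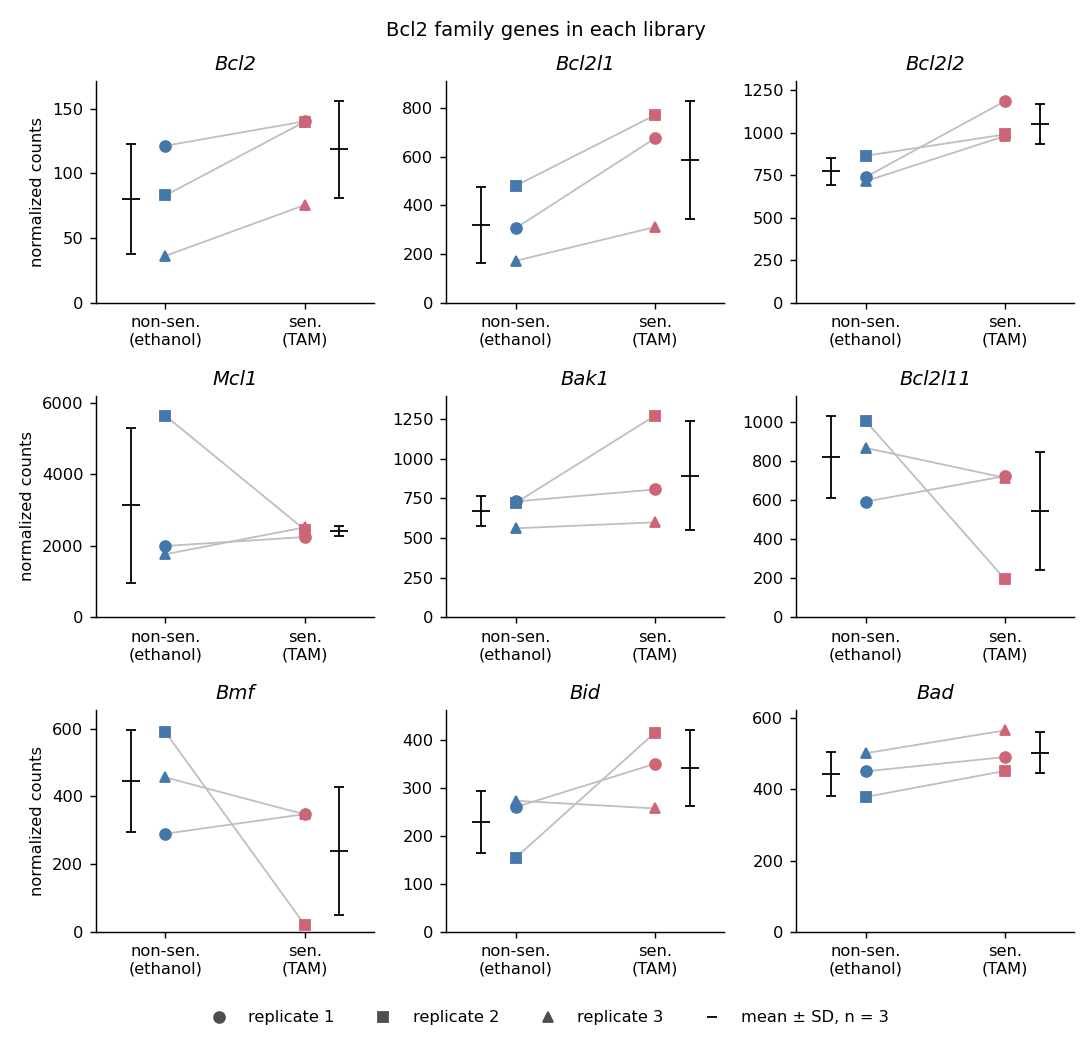
Normalized counts (vertical axis, from 0) of the 9 tested members in the 6 libraries, with grey lines joining libraries of the same replicate number and black bars giving mean ± SD (n = 3). Bcl2, Bcl2l1, Bcl2l2, Bak1 and Bad were higher under TAM in all 3 pairs, while TAM replicate 2 lay lowest for Bcl2l11 (195) and Bmf (20.9) and ethanol replicate 2 highest for Mcl1 (5636).

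Bak1, the effector that sits in the outer mitochondrial membrane, lies on chromosome 17 from 27156755 to 27165954 (ENSMUSG00000057789, 7 exon blocks). Under ethanol Bak1 had 730, 720 and 561 normalized counts, and under TAM 806, 1270 and 598. Each pair was higher under TAM, but by 0.14, 0.82 and 0.09, so most of the difference lay in replicate 2. The log2 difference of 0.35 had a 95% interval from −0.33 to 1.04 (limma adjusted p = 0.651), and it was 0.06 without TAM replicate 2, 0.23 without ethanol replicate 3 and 0.60 without TAM replicate 3. On the other strand Ggnbp1 covers 14.8% of the exon bases of Bak1. The other effector, Bax, had 1126, 829 and 694 normalized counts under ethanol and 1191, 1261 and 1008 under TAM, a log2 difference of 0.41 (limma adjusted p = 0.483) with all 3 pairs higher under TAM.

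Among the BH3-only genes, Bcl2l11 and Bmf were both low in the same TAM library. Bcl2l11 encodes Bim, which binds all survival proteins, and lies on chromosome 2 from 127951774 to 127986697 (ENSMUSG00000027381, 6 exon blocks). The ethanol values of Bcl2l11 were 592, 1006 and 867 normalized counts and the TAM values 723, 195 and 715. TAM replicate 2 was the single low library, and the other 2 TAM values lay within the range of the ethanol values. The log2 difference was −0.78 with a 95% interval from −2.00 to 0.44 (limma adjusted p = 0.575). It was −0.16 without that library and 0.0043 with both libraries numbered 2 left out, where the sign turned.

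Bmf encodes a protein that is held by the cytoskeleton's motor complexes until stress or detachment frees it. It lies on chromosome 2 from 118354493 to 118375423 (ENSMUSG00000040093, 7 exon blocks). Under ethanol Bmf had 290, 590 and 456 normalized counts, and under TAM 348, 20.9 and 347. The value in TAM replicate 2 lay 3.99 below the mean of the other 2 TAM libraries on the log2 scale, and 8 of the 11877 genes tested lay further below. For Bcl2l11 this distance was −1.88, with 175 genes further below. The log2 difference of Bmf was −1.63 with a 95% interval from −4.06 to 0.80 (limma adjusted p = 0.559), and it was −0.30 without that library and −0.07 with both libraries numbered 2 left out. In the same library Bbc3, the gene for the BH3-only protein Puma, had 82.1 normalized counts, against 320 and 236 in the other TAM libraries and 226, 412 and 236 under ethanol (log2 difference −0.60, limma adjusted p = 0.660).

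The genes whose log2 values, centred on their means over the 6 libraries, lay closest to Bmf were Rnf144a, 2810408A11Rik and Acss3, with root mean square differences of 0.46, 0.47 and 0.50. They shared the low library, with 82.9, 11.7 and 14.2 normalized counts in TAM replicate 2, where the other 5 libraries had between 1170 and 1667 for Rnf144a, between 89.3 and 198 for 2810408A11Rik and between 86.9 and 291 for Acss3. Among the members, Bcl2l11 was the nearest to Bmf, at place 47 of all genes tested with a root mean square difference of 0.83.

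**Figure D2:**
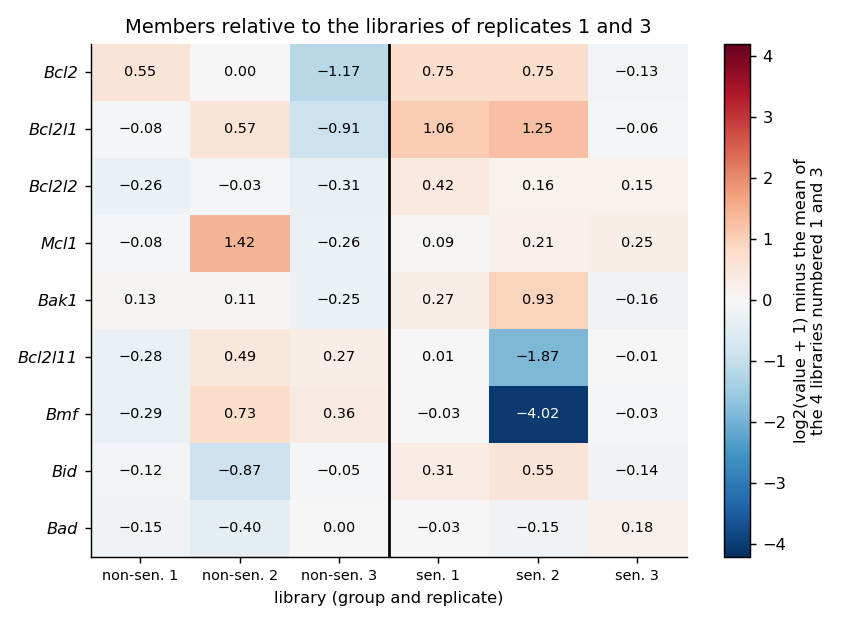
Colour and printed value give log2(normalized counts + 1) of each tested member (rows) in each library (columns) minus the mean of the 4 libraries numbered 1 and 3, which makes the libraries numbered 2 stand out. Bmf (−4.02) and Bcl2l11 (−1.87) were low in TAM replicate 2, and Mcl1 (1.42) was high in ethanol replicate 2.

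Bid encodes a protein that caspase 8 cleaves and that then carries the signal of death receptors to the mitochondria. The gene is on chromosome 6 from 120841948 to 120866854 (ENSMUSG00000004446, 9 exon blocks), and Bcl2l13 on the other strand covers 17.7% of its exon bases. The ethanol values of Bid were 260, 154 and 274 normalized counts and the TAM values 351, 416 and 258. The 2 highest values were TAM libraries, and the third TAM value lay within the range of the ethanol values. The log2 difference of 0.59 had a 95% interval from −0.11 to 1.28 (limma adjusted p = 0.450), with pair differences of 0.43, 1.42 and −0.09, and it was 0.33 without ethanol replicate 2, 0.43 without TAM replicate 2, 0.12 with library weights and 0.17 with both libraries numbered 2 left out.

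Bad, which survival kinases hold inactive by phosphorylation, had the narrowest range of pair differences among the tested members. It lies on chromosome 19 from 7016345 to 7026383 (ENSMUSG00000024959, 6 exon blocks), and Gpr137 on the other strand covers 25.8% of its exon bases. Under ethanol Bad had 451, 379 and 501 normalized counts, and under TAM 491, 452 and 566. The 3 pairs were higher under TAM by 0.12, 0.25 and 0.17, and the groups overlapped. The log2 difference of 0.18 had a 95% interval from −0.26 to 0.63 (limma adjusted p = 0.719), and it was 0.07 without ethanol replicate 2, 0.095 without TAM replicate 3 and 0.28 without ethanol replicate 3. Bik, on chromosome 15 from 83357292 to 83375065 (ENSMUSG00000016758), a BH3-only gene whose protein sits in the endoplasmic reticulum, was not tested. It had 0.96 normalized counts in ethanol replicate 2, 0.77 and 0.74 in TAM replicates 1 and 3 and was listed at 0 in the other 3 libraries, and the smallest values above 0 in the libraries lay between 0.36 and 0.89.

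By direction, 5 of the 9 tested members (Bcl2, Bcl2l1, Bcl2l2, Bak1 and Bad) were higher under TAM in all 3 pairs, where 18.3% of all genes tested were, and 0 were lower in all 3, against 23.6%. Over both directions 41.9% of all genes kept their sign in the 3 pairs. The median log2 difference was 0.55 over the 4 survival genes, −0.30 over the 4 BH3-only genes tested and 0.35 over the 9 members, beside −0.03 over all genes tested. The BH3-only median rested on 1 library: it was 0.05 without TAM replicate 2 and 0.08 with both libraries numbered 2 left out, so its sign turned. With each library left out in turn the survival median ranged from 0.29, without ethanol replicate 3, to 0.73, and that of the 9 members from 0.23 to 0.49. Scaling the libraries to equal sums moved the median of all genes by over 0.1, to 0.08, and left the sign of each of the 9 members as it was.

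**Figure D3:**
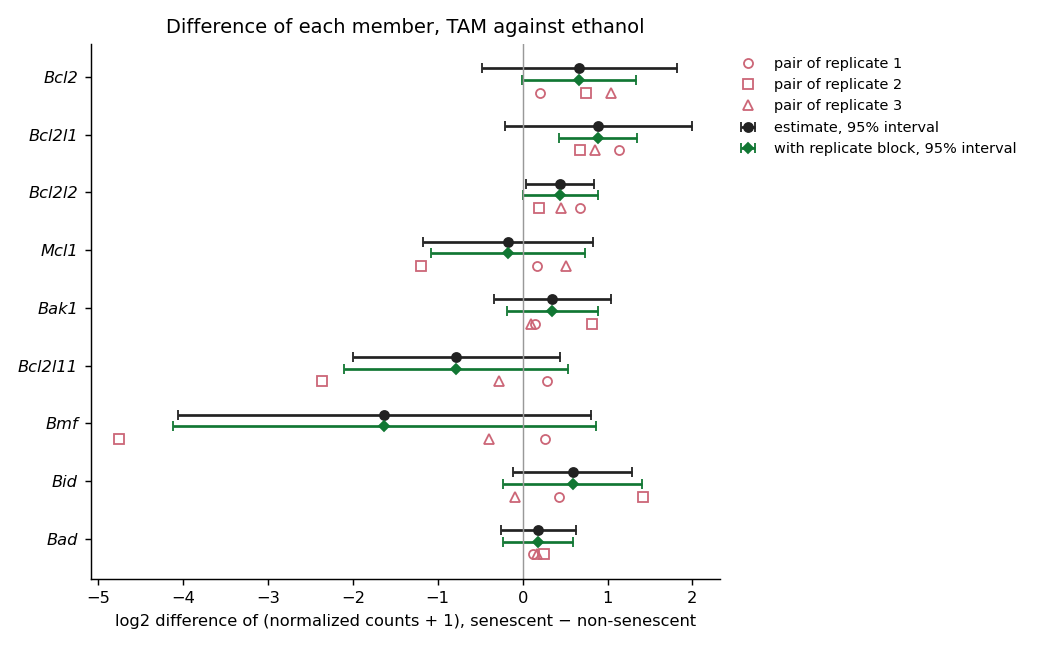
Log2 differences of the 9 tested members (horizontal axis), with 95% intervals of limma without (circles) and with the replicate block (diamonds), and the 3 pair differences as open symbols. The 3 pair differences of Bcl2l1 lay between 0.68 and 1.14, and those of Bmf between −4.75 and 0.26.

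Levels were compared between members per kilobase of exon. Mcl1 was the highest in all 6 libraries, with 898 ± 623 normalized counts per kb (SD, n = 3) in the ethanol libraries and 689 ± 40.3 in the TAM libraries. Bak1 followed with 278 ± 39.5 and 370 ± 143 per kb, then Bad with 221 ± 30.7 and 250 ± 28.9 and Bcl2l2 with 173 ± 18.0 and 236 ± 26.0, and the ranges of neighbours among these 3 overlapped in both groups. Bcl2l2 lay above all members that followed in each group without overlap with the next. Below it stood Bcl2l11 (102 ± 26.2 and 67.8 ± 37.6), Bmf (84.8 ± 28.6 and 45.4 ± 35.9), Bcl2l1 (67.4 ± 32.6 and 124 ± 51.3) and Bid (64.7 ± 18.4 and 96.2 ± 22.3), whose ranges overlapped from each to the next. In that stretch the order of the group means was Bcl2l11, Bmf, Bcl2l1, Bid in the ethanol libraries and Bcl2l1, Bid, Bcl2l11, Bmf in the TAM libraries. Single libraries did not all keep it. TAM replicate 2 had low values of Bcl2l11 (24.3 per kb) and Bmf (3.98). In TAM replicate 3 the order was Bcl2l11 (89.0), Bid (72.6), Bmf (66.1) and Bcl2l1 (65.5). Bcl2 was at 11.1 ± 5.93 and 16.5 ± 5.19 per kb and overlapped with Bmf in the TAM libraries, and Bik had at most 1.02 in any library.

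Of the summed level per kb of the 10 members, the 4 survival genes made up 52.9%, 71.4% and 48.4% under ethanol and 56.2%, 55.2% and 57.3% under TAM. Mcl1 alone gave 36.9%, 60.0% and 34.6% and then 33.8%, 35.0% and 40.6%. Bcl2l11 and Bmf together gave 8.33%, 8.82% and 13.3% in the ethanol libraries and 8.19%, 1.41% and 8.73% in the TAM libraries. The high share of survival genes in 1 ethanol library was that of Mcl1, and the low share of the BH3-only pair lay in 1 TAM library.

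**Figure D4:**
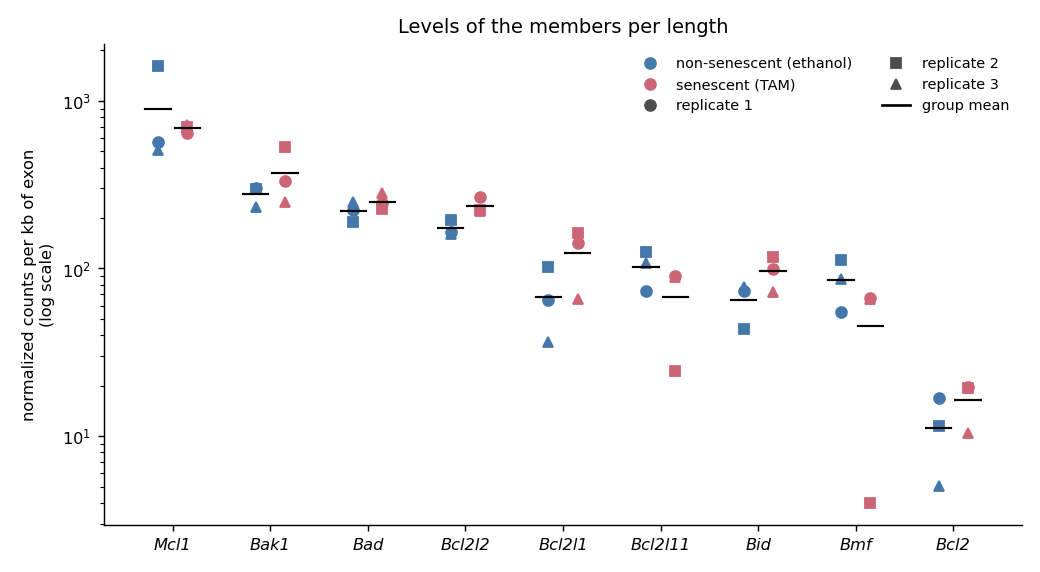
Normalized counts per kilobase of exon (log axis) of the 9 tested members in each library, blue for ethanol and red for TAM, with black lines at the group means and members ordered by their mean over all libraries. Mcl1 lay above every other member in each library, and Bcl2 was the lowest but for Bmf in TAM replicate 2.

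The rest of the pathway was described with lists compiled by hand with earlier results of these data known. The shares of all genes set beside their counts are therefore description and not a test. Of 14 other Bcl2 family genes 8 were tested and 0 were called by limma at an adjusted p under 0.05, with or without the block, against 0.244% and 1.62% of all genes. At an unadjusted p under 0.05, 1 of the 8 was higher, against 6.67% of all genes. This was Pmaip1, the gene for the BH3-only protein Noxa, with 84.3, 151 and 22.0 normalized counts under ethanol and 247, 327 and 254 under TAM (log2 difference 2.04, standard error 0.64, limma adjusted p = 0.254). Its groups did not overlap, as for 9.19% of all genes tested in this direction. Those of Bcl2l12 (log2 difference −0.35) did not overlap in the other direction, as for 11.4% of all genes. The untested Hrk, Bcl2a1a, Bcl2l10 and Bcl2l14 had 6.67 normalized counts or fewer in every library, and Bcl2a1b and Bcl2a1d were listed at 0.

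All 16 genes of a list of caspases and other genes of the mitochondrial death pathway, the membrane channels Vdac1, Vdac2 and Vdac3 among them, were tested, 11 had a negative log2 difference, against 53.8% of all genes, and 5 a positive one, and 0 were called. At an unadjusted p under 0.05, 3 were lower and 0 higher, against 6.70% and 6.67% of all genes. The groups of the same 3 did not overlap, against 11.4% of all genes in this direction. Apaf1, the scaffold of the apoptosome, had 1096, 2176 and 1319 normalized counts under ethanol and 776, 532 and 981 under TAM (log2 difference −0.98, standard error 0.32, limma adjusted p = 0.269). Casp2 differed by −0.88 (standard error 0.30, adjusted p = 0.281) and Casp9, the caspase that Apaf1 activates and the one named here after its values were seen, by −0.77 (standard error 0.23, adjusted p = 0.246). All 3 had their largest pair difference in replicate 2. The pair differences were −0.50, −2.03 and −0.43 for Apaf1, −0.33, −1.81 and −0.50 for Casp2, and −0.55, −1.15 and −0.60 for Casp9. Of the 6 caspase inhibitor genes 0 passed even the unadjusted threshold. The groups did not overlap for Xiap (−0.35), against 11.4% of all genes tested in this direction, and for Birc3 (0.31), against 9.19% in the other.

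The death receptor list had the highest median log2 difference of the 5 other lists. Of its 8 genes 7 had a positive log2 difference, against 46.2% of all genes tested, 4 were higher at an unadjusted p under 0.05 against 6.67% of all genes tested, and 0 were called at an adjusted p under 0.05 with or without the block. Fas, the receptor of Fas ligand, had 98.4, 89.6 and 35.3 normalized counts under ethanol and 276, 182 and 217 under TAM (log2 difference 1.69, standard error 0.42, limma adjusted p = 0.183). Tnfrsf10b, the mouse Trail receptor, had 349, 385 and 227 and then 505, 640 and 482 (log2 difference 0.78, standard error 0.25, adjusted p = 0.260). The other 2, named after their values were seen, were Casp8, which cleaves Bid (0.70, standard error 0.22, adjusted p = 0.258), and Casp12 (0.69, standard error 0.22, adjusted p = 0.259). The list holds Casp12 although this caspase is tied to the endoplasmic reticulum. The groups of these 4 genes and of Ripk1 did not overlap, 5 of 8 genes, against 9.19% of all genes tested in this direction.

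Among 15 partners and regulators, 0 were called and 1 was higher at an unadjusted p under 0.05, a share like the 6.67% of all genes. The 1 gene was Dynll2, the dynein light chain that holds Bmf, with a log2 difference of 0.63 (standard error 0.19, limma adjusted p = 0.246). Trp53 differed by −0.01, Stat3 by 0.33, Foxo3 by 0.04 and Foxo1 by −0.87 (standard error 0.40, limma adjusted p = 0.408). Replicate 2 went apart in each. The pair differences were −0.26, 0.34 and −0.11 for Trp53 and 0.60, −0.53 and 0.93 for Stat3. They were 0.76, −1.45 and 0.81 for Foxo3 and −0.57, −1.90 and −0.15 for Foxo1. The median log2 difference was −0.18 for the other Bcl2 family genes, −0.08 for the mitochondrial list, 0.05 for the caspase inhibitors, 0.49 for the death receptor list and 0.09 for the partners.

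**Figure D5:**
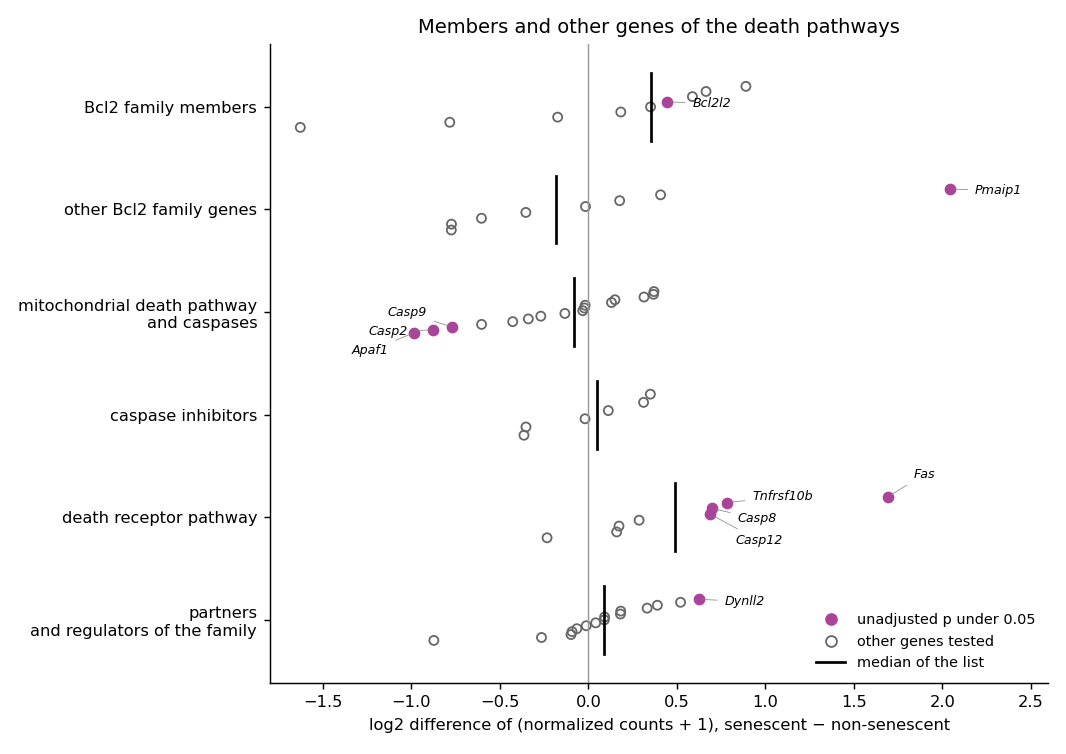
Log2 difference between the groups (horizontal axis) of each tested gene in the members' list and 5 other lists (rows), with filled points for an unadjusted p under 0.05 and black lines at the list medians. Named points are the genes with an unadjusted p under 0.05, from Apaf1 at −0.98 to Pmaip1 at 2.04, and none of the genes shown had an adjusted p under 0.05.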

How the data were processed

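The series holds poly(A) RNA-seq of 6 samples. Reads were aligned by the authors using TopHat and mm9, assigned to genes by htseq-count and passed to edgeR (TMM). Versions and the strand setting are not given in the sources used here. The deposited signal, a normalized count for every gene in every library, has no stated scaling. Most values are not whole, so they were not used as read counts, and read depth is unknown for most libraries. No interval for counting error was computed. The precision is that of 3 libraries against 3.

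Differences were tested with limma 3.58.1 (R 4.3.3) on log2(value + 1) (intensity trend on), keeping genes that reached 1 c.p.m. in 3 or more libraries. The labels number the libraries of each group but do not say whether those of the same number were cultured together. Deviations from group means correlated across genes with r = 0.24, 0.29 and 0.42 within same-numbered pairs and from −0.31 to 0.04 between. A replicate block was therefore also fitted, as an alternative. Its pairing rests on the numbers and on these same data, and was not shown otherwise. The fit was checked on simulated data with independent libraries and changes larger than those of the members. That check does not cover outlying libraries, correlated replicates or differences of the members' size. Exon lengths, overlaps and transcripts came from the GENCODE annotation of mm9, in which 22148 of the 22162 genes were found, and promoters from RefSeq (GRCm38.p6). Figures were made with matplotlib 3.10.9.

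The members and lists were chosen with earlier results of these data known. The text names all members, Bax, Bbc3, Cdkn1b, the genes called in each other list, up to 2 with the largest difference at an unadjusted p under 0.05, and the 3 genes nearest to the member with the largest difference. All other genes named were chosen after their values were seen. Alternatives were other pseudocounts, filters, scalings, library weights, the block and leaving out libraries.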

Additional observations from a re-analysis of the deposited data

How the results depend on the processing

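Of 162 values of the 9 tested members under 18 alternatives, 155 kept their direction and stayed on their side of the threshold. Part of this count was fixed in advance. Fits with the block repeat the differences of the same fits without it, and other filters left the differences of the members unchanged. There only the p-values could move. Mcl1 turned to 0.27 with library weights, 0.36 without ethanol replicate 2 and 0.34 with both libraries numbered 2 left out, with or without the replicate block (range with each library left out in turn −0.48 to 0.36), and Bcl2l11 turned to 0.0043 in both of these last fits. Bcl2l1 passed the threshold only there, with the block (0.99, limma adjusted p = 0.0277), against adjusted p-values from 0.0836 to 0.802 elsewhere. The number of members called was 0 in every fit but that one, where it was 1, and 0 with any library left out. Genes called higher and lower numbered 20 and 9 in the main setting, 119 and 73 with the replicate block, 386 and 356 with library weights, 136 and 57 with equal sums and the block, 5 and 4 with both libraries numbered 2 left out, and 472 and 383 in that setting with the block. They numbered 12 and 5 without a filter, 14 and 4 with at least 10 in every library, and 13 and 7 after quantile normalization. With each library left out in turn they ranged from 0 to 6 and from 0 to 9. The causes were not tested. Settings without both libraries numbered 2, and equal sums with the block, were chosen after seeing the data. The block changed no call of a member among all 6 libraries. Values of Bik and of other genes near 1 normalized count lie close to the smallest values above 0 in the libraries.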
